A study of Homo sapiens with 8 samples.

Results

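The bile acid genes described here were 10 key genes of bile acid synthesis, conjugation, transport and feedback in hepatocytes: CYP7A1, CYP8B1, CYP27A1, AKR1D1, SLC27A5, BAAT, SLC10A1, SLC51B, ABCC2 and NR0B2. They were chosen by function, but with earlier results of these data known. All 10 were measured, each by a single probe set, and they stand among 17845 genes tested. Transcript levels came from Affymetrix Human Gene 1.0 ST arrays hybridised with RNA of HepG2 cells, a line from a human liver tumour that keeps many hepatocyte features. The cells had been exposed for 4 h to JQ1 at 500 nM (2 arrays), to RVX-208 at 5000 nM (3 arrays) or to the solvent alone (3 arrays). All cultures, those of the inhibitors included, held DMSO at 0.1%. A further JQ1 sample named in the study design is not analysed here. All samples are of this 1 line, and the labels do not say whether replicates were separate cultures.

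JQ1 and RVX-208 are inhibitors of the BET proteins, which dock on acetylated chromatin through bromodomains and help RNA polymerase to elongate transcripts. JQ1 occupies both bromodomains of these proteins, while RVX-208 (apabetalone) favours the second one. Hepatocytes make bile acids from cholesterol in a chain of hydroxylation, ring reduction and side chain oxidation steps, link them to glycine or taurine, and secrete them into bile. Bile acids return from the gut to the liver, where they activate the nuclear receptor FXR, which induces NR0B2 and export transporters and lowers synthesis.

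Values are log2 signals after RMA, the normalisation used by the authors, in which 1 unit is a doubling. Medians of the arrays ran from 7.26 to 7.31, and Pearson correlations of replicates over all probe sets from 0.9962 to 0.9973. Of the transcripts known to respond to BET inhibitors that were checked, HEXIM1 and MYC were called with both inhibitors. SERPINI1 was called with JQ1 only, and its RVX-208 arrays overlapped with DMSO arrays. HEXIM1, an inhibitor of the elongation factor P-TEFb, was higher by 1.49 ± 0.06 log2 units with JQ1 and by 0.48 ± 0.05 with RVX-208 (SE; adjusted p = 9.94e-06 and 0.00677, limma). MYC was lower, with log2 fold changes of −0.675 ± 0.06 with JQ1 (adjusted p = 0.000163) and −0.22 ± 0.05 with RVX-208 (adjusted p = 0.0482, limma). SERPINI1 was higher by 0.93 ± 0.16 log2 units with JQ1 (adjusted p = 0.00429) and stood at 0.38 ± 0.15 with RVX-208 (adjusted p = 0.14, limma). Hepatocyte markers such as ALB, TTR and AHSG were all above background, and 0 of 8 passed the limma test in any comparison (at an unadjusted p under 0.05, 1 of 8 with JQ1, 0 of 8 with RVX-208 and 1 of 8 between the inhibitors). Their summed log2 level was 15.76 to 15.80 on JQ1 arrays, 15.69 to 15.75 on RVX-208 arrays and 15.68 to 15.72 on DMSO arrays.

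RefSeq promoter windows (build GRCh38.p14, 250 bases before to 50 after the start) were found for 7 of the 10 genes. Those of the 4 genes that were lower after JQ1 are shown because these are the genes called lower with that inhibitor, with CYP27A1, which passed no test, beside them. Capitals mark matches, on either strand, to letters known as cores of factor sites. Searched for were CAAAGTCC, known for HNF4, CAAGGTCA and CAAGGCCA, known for NR5A2, and TTGCGCAA, known for C/EBP factors. For nuclear receptors at large the letters were AGGTCA, which also lie within the NR5A2 core with T. The TATA box was searched for as TATAAA. The E box, bound by many helix-loop-helix factors, was searched for as CACGTG.
AKR1D1, chr7:138076209-138076508, plus strand: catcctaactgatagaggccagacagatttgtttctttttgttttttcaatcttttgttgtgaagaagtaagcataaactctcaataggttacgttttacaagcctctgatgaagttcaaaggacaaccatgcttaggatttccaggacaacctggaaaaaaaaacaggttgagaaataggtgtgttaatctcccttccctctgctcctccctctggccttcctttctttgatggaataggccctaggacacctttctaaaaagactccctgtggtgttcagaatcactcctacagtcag
BAAT, chr9:101383515-101383814, minus strand: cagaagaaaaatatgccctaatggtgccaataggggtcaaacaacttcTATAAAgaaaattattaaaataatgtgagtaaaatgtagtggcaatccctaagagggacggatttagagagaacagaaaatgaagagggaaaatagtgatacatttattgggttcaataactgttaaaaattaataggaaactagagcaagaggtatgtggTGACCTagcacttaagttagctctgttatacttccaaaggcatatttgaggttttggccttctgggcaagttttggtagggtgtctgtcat
SLC51B, chr15:65045137-65045436, plus strand: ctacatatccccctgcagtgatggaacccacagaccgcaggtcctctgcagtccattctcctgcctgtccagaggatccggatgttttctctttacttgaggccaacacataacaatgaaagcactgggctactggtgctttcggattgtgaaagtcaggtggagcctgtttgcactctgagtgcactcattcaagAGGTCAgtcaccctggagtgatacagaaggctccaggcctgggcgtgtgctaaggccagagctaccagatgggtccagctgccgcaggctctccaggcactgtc
ABCC2, chr10:99782390-99782689, plus strand: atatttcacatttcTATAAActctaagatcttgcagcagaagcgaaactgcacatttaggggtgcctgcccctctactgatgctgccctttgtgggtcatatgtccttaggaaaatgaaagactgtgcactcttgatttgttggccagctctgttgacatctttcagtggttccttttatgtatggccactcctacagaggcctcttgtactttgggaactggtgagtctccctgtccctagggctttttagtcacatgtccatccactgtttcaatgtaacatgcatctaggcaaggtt
CYP27A1, chr2:218781897-218782196, plus strand: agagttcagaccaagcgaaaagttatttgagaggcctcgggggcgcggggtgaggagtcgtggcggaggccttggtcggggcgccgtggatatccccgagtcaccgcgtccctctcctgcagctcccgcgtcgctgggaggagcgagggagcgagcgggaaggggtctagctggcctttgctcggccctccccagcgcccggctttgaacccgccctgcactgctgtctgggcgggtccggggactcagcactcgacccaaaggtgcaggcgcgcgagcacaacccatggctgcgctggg
RefSeq gives BAAT a pair of windows. The one printed was chosen for its matches, TATAAA at −202 from the start and AGGTCA on the opposite strand at −41, and the other matched none of the letters. SLC51B carried AGGTCA at −54 and ABCC2 carried TATAAA at −236. AGGTCA occurs in 13.8% and TATAAA in 11.5% of all 35116 windows. In the AKR1D1 and CYP27A1 windows none of the letters was found. GC content was 41.3% for AKR1D1, 36.3% for BAAT, 55.0% for SLC51B, 45.0% for ABCC2 and 68.7% for CYP27A1, against a median of 58.67% over all windows. The 4 windows of the genes lower after JQ1 held 1, 1, 5 and 1 CpG in that order, and that of CYP27A1 held 29, against a median of 14. SLC27A5, with CAAAGTCC at −104 (1.2% of windows), and SLC10A1, with AGGTCA at −149, complete the set. Neither was called lower with JQ1, yet their windows held 2 and 3 CpG, at a GC content of 62.7% and 52.3%. Low CpG counts were thus not particular to the genes lower after JQ1. CAAGGTCA, CAAGGCCA, TTGCGCAA and CACGTG, present in 1.28%, 1.65%, 0.151% and 7.26% of windows, matched none of the members' windows.

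After 4 h with JQ1, transcripts of 4 of the 10 bile acid genes were lower than with DMSO and those of 1 were higher, at an adjusted p under 0.05 (limma, adjusted over all genes). The lower ones were BAAT, SLC51B, AKR1D1 and ABCC2, and the higher one was NR0B2. Of all 17845 genes, 12% were lower and 10.7% higher in that comparison, 22.8% in either direction. The median log2 fold change was −0.345 over the 10 genes and −0.04 over all genes. Since the 10 were chosen with earlier results of these data known, setting them beside all genes is a description and not a test. With RVX-208, 2 of the 10, AKR1D1 and SLC51B, were lower and 0 were higher (limma), while 3.22% of all genes were lower and 3.06% higher, 6.28% in either direction. At an unadjusted p under 0.05 were 8 of the 10 with JQ1 and 6 of the 10 with RVX-208 (limma). The share of all genes at an unadjusted p was not computed. Unadjusted counts, here and elsewhere, therefore cannot be set against the shares of all genes called. The number of RVX-208 calls fell when single arrays were left out, and such fits also hold fewer arrays. Over all arrays 1120 genes were called with RVX-208, but leaving out RVX-208 replicate 1, 2 or 3 gave 291, 151 or 52 calls. Leaving out DMSO replicate 2 gave 310 and DMSO replicate 3 gave 81, and each of the other arrays 705 to 756. The median was −0.203 over the 10 genes with RVX-208 and −0.023 over all genes. Both comparisons share the same DMSO arrays, so their errors are not independent.

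Counted by array, JQ1 and DMSO arrays did not overlap for 9 of the 10 genes, 8 below and 1 above, where 50.4% of all genes did not overlap. RVX-208 and DMSO arrays did not overlap for 6 of 10, all with RVX-208 below, where the share over all genes was 34.1%. In these cell populations, fewer cells making a transcript and less transcript per cell cannot be told apart. Centring the arrays on 10 housekeeping genes in place of the authors' scaling moved the median of all genes to −0.206 with JQ1 and to −0.122 with RVX-208, so every direction given here is relative to the authors' scaling. On that scaling the housekeeping genes themselves had a median log2 fold change of 0.131 with JQ1 and 0.095 with RVX-208. With JQ1, 2 of these 10 were called higher and 0 lower (limma), where 10.7% of all genes were called higher.

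**Figure D1:**
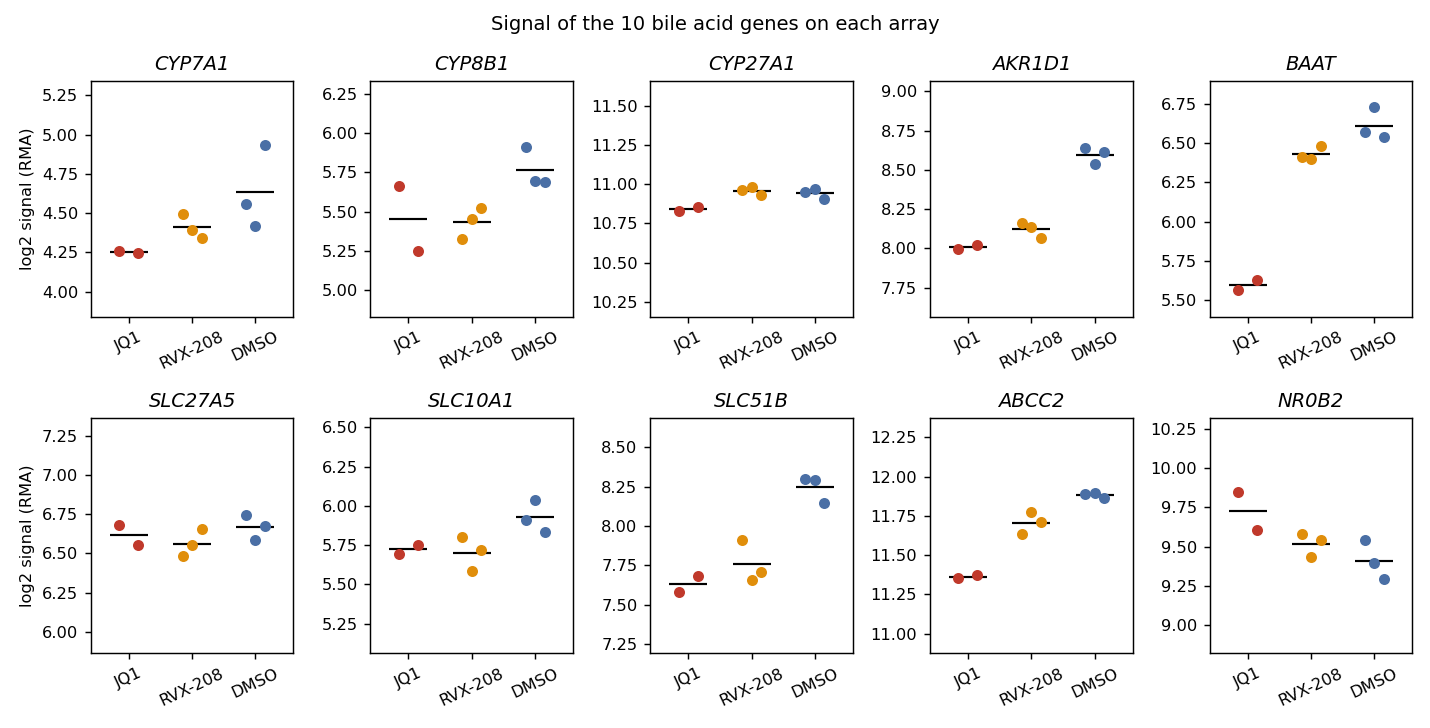
Signal of the 10 bile acid genes on each array, as log2 RMA signal on the vertical axis, with JQ1, RVX-208 and DMSO from left to right. Each point is an array and each bar a group mean, and all panels span the same number of log2 units. BAAT on the JQ1 arrays (5.56 and 5.63) lies apart from all other arrays, while AKR1D1 and SLC51B are low on the arrays of both inhibitors.

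CYP7A1 was at background on these arrays, and no difference in it passed the test. CYP7A1, the rate-limiting hydroxylase that commits cholesterol to bile acids, read 4.26 and 4.25 on JQ1 arrays, 4.49, 4.39 and 4.34 on RVX-208 arrays, and 4.56, 4.42 and 4.93 on DMSO arrays. Its mean signal was above that of 50.45% of 335 olfactory receptor genes, which a hepatocyte line should lack. The JQ1 arrays lay below all DMSO arrays, with a log2 fold change of −0.38 ± 0.13 (adjusted p = 0.0706, limma), and RVX-208 arrays overlapped with DMSO arrays (−0.23 ± 0.12, adjusted p = 0.243). Without DMSO replicate 2 the JQ1 difference was −0.49 at an adjusted p of 0.0262 (limma). Without DMSO replicate 3, the highest of these arrays, it was −0.23 with JQ1 (adjusted p = 0.0728) and −0.08 with RVX-208 (adjusted p = 0.551, limma).

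CYP8B1, the hydroxylase that directs the pathway towards cholic acid, was also dim. Its signal was 5.66 and 5.25 on JQ1 arrays, 5.33, 5.45 and 5.52 on RVX-208 arrays and 5.91, 5.70 and 5.69 on DMSO arrays. Arrays of both inhibitors lay below all DMSO arrays, but neither difference passed the test: −0.31 ± 0.13 with JQ1 (adjusted p = 0.112) and −0.33 ± 0.11 with RVX-208 (adjusted p = 0.104, limma). The pair of JQ1 arrays lay far apart: the JQ1 difference was −0.515 without JQ1 replicate 1 (adjusted p = 0.0261) and −0.10 without JQ1 replicate 2 (adjusted p = 0.614, limma). The 95th percentile of the olfactory receptor genes was 5.92, above the mean of CYP8B1, and fold changes near background can be compressed, which was not tested.

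CYP27A1, the mitochondrial enzyme that oxidises the sterol side chain and opens the alternative pathway, was well measured and showed no called difference. It stood at 10.83 and 10.85 on JQ1 arrays, at 10.96, 10.98 and 10.93 on RVX-208 arrays, and at 10.95, 10.97 and 10.90 on DMSO arrays. JQ1 arrays were the lowest, by a small margin. The log2 fold change was −0.10 with JQ1 (95% confidence interval −0.22 to 0.02, adjusted p = 0.205) and 0.02 with RVX-208 (−0.09 to 0.12, adjusted p = 0.83, limma).

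AKR1D1 fell with both inhibitors. It reduces the double bond of the steroid ring, the step that gives bile acids their bent shape. The JQ1 arrays read 7.995 and 8.02, the RVX-208 arrays 8.16, 8.14 and 8.07, and the DMSO arrays 8.64, 8.54 and 8.61. No array of either inhibitor reached the lowest DMSO array. The level was 1.503-fold lower with JQ1 (log2 fold change −0.59 ± 0.06, 95% confidence interval −0.72 to −0.46, adjusted p = 0.00025) and 1.39-fold lower with RVX-208 (−0.475 ± 0.05, −0.59 to −0.36, adjusted p = 0.00677, limma). Both calls held whichever array was left out. Ordered by log2 fold change over all 17845 genes, AKR1D1 had rank 328 from the lowest with JQ1 and rank 70 with RVX-208.

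Of the conjugation enzymes, BAAT had the lowest log2 fold change of the 10 genes with JQ1, and SLC27A5 passed no test. SLC27A5 is the ligase that activates bile acids with coenzyme A, and BAAT then joins them to glycine or taurine. For BAAT the signal was 5.56 and 5.63 on JQ1 arrays, 6.41, 6.40 and 6.48 on RVX-208 arrays and 6.57, 6.73 and 6.54 on DMSO arrays. Both JQ1 arrays stood apart from the other 6, and the RVX-208 arrays lay just below the DMSO arrays without overlap. BAAT was 2.02-fold lower with JQ1 than with DMSO (log2 fold change −1.01 ± 0.07, 95% confidence interval −1.17 to −0.85, adjusted p = 5.33e-05, limma), rank 49 from the lowest of all genes. This call held with any array left out. The RVX-208 difference was −0.18 ± 0.06 (95% confidence interval −0.32 to −0.04) and did not pass (adjusted p = 0.111, limma). On the JQ1 arrays BAAT lay below 5.92, the 95th percentile of the olfactory receptor genes, where fold changes can be compressed. Compression of the BAAT difference was not tested.

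SLC27A5 read 6.68 and 6.55 on JQ1 arrays, 6.48, 6.55 and 6.66 on RVX-208 arrays, and 6.75, 6.58 and 6.67 on DMSO arrays. All groups overlapped. The log2 fold change was −0.05 with JQ1 (95% confidence interval −0.23 to 0.12, adjusted p = 0.675) and −0.105 with RVX-208 (−0.26 to 0.05, adjusted p = 0.344, limma).

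Of the 3 transport genes, SLC51B and ABCC2 fell with JQ1 and SLC10A1 passed no test. SLC10A1, or NTCP, takes conjugated bile acids up from blood and is the entry receptor of hepatitis B virus. Its signal of 5.69 and 5.75 on JQ1 arrays, 5.80, 5.58 and 5.72 on RVX-208 arrays and 5.91, 6.04 and 5.84 on DMSO arrays was under the 95th percentile of the olfactory receptor genes on average. The arrays of both inhibitors lay below all DMSO arrays, by −0.21 ± 0.08 with JQ1 (adjusted p = 0.109) and −0.23 ± 0.07 with RVX-208 (adjusted p = 0.0943, limma), and neither passed.

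SLC51B fell with both inhibitors. It encodes the small subunit of the exporter OST, which moves bile acids across the basolateral membrane and is a known FXR target. The level was 7.58 and 7.68 on JQ1 arrays, 7.91, 7.65 and 7.71 on RVX-208 arrays and 8.30, 8.29 and 8.145 on DMSO arrays. The highest array of either inhibitor stayed under the lowest DMSO array. With JQ1 it was 1.53-fold lower (log2 fold change −0.62 ± 0.09, 95% confidence interval −0.82 to −0.415, adjusted p = 0.00156, limma), at rank 288 from the lowest. With RVX-208 it was 1.40-fold lower (−0.49 ± 0.08, −0.67 to −0.31, adjusted p = 0.0202, limma), at rank 61. The RVX-208 call was lost without DMSO replicate 2 (adjusted p = 0.0535), DMSO replicate 3 (0.0532), RVX-208 replicate 2 (0.0573) or RVX-208 replicate 3 (0.0787, limma), with the same direction each time. SLC51A, the partner subunit, was at −0.33 ± 0.11 with JQ1 (adjusted p = 0.0663) and −0.15 ± 0.10 with RVX-208 (adjusted p = 0.354, limma).

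ABCC2, or MRP2, pumps conjugated bilirubin and sulfated or glucuronidated bile acids into bile. The level was 11.35 and 11.38 on JQ1 arrays, 11.64, 11.78 and 11.71 on RVX-208 arrays and 11.89, 11.90 and 11.86 on DMSO arrays. The 3 groups did not overlap, with JQ1 lowest and RVX-208 between JQ1 and DMSO. It was 1.43-fold lower with JQ1 than with DMSO (log2 fold change −0.52 ± 0.06, 95% confidence interval −0.65 to −0.39, adjusted p = 0.000452, limma), at rank 436 from the lowest, and this call held with any array left out. The RVX-208 difference of −0.18 ± 0.05 (95% confidence interval −0.29 to −0.06) missed the threshold (adjusted p = 0.0753), and passed it with dim genes left out (adjusted p = 0.0391, limma) and under several other settings given at the end.

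NR0B2 was the only one of the 10 genes called higher, and only with JQ1. It encodes SHP, a nuclear receptor without a DNA-binding domain that FXR induces and that represses CYP7A1. The JQ1 arrays read 9.85 and 9.60, the RVX-208 arrays 9.58, 9.435 and 9.54, and the DMSO arrays 9.54, 9.39 and 9.29. JQ1 arrays lay above all DMSO arrays and RVX-208 arrays overlapped with them. It was 1.24-fold higher with JQ1 (log2 fold change 0.32 ± 0.10, 95% confidence interval 0.10 to 0.54, adjusted p = 0.0467, limma), and RVX-208 gave 0.11 ± 0.09 (adjusted p = 0.439). The JQ1 call was lost without JQ1 replicate 1 (log2 fold change 0.19, adjusted p = 0.282), DMSO replicate 2 (adjusted p = 0.102) or DMSO replicate 3 (adjusted p = 0.12, limma). It was also lost without RVX-208 replicate 1 (0.0602), 2 (0.0584) or 3 (0.0669, limma), which enter only the shared estimate of the spread. Nor did the call hold with only the 2 groups compared in the fit (0.083) or with all probe sets tested (0.0516, limma).

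Set against each other directly, the inhibitors differed for 2 of the 10 genes, both lower with JQ1, and 0 were higher (limma; 3 of 10 at an unadjusted p under 0.05). Over all genes 6.78% were lower and 4.16% higher with JQ1 than with RVX-208, 10.9% in either direction. Doses differed, so this compares the treatments as they were given. BAAT was 1.78-fold lower with JQ1 than with RVX-208 (log2 fold change −0.83 ± 0.07, adjusted p = 0.000409, limma), and this call held with any array left out. BAAT on the JQ1 arrays lay under 5.92, the 95th percentile of the olfactory receptor genes. Whether this fold is compressed was not tested. ABCC2 was 1.27-fold lower (log2 fold change −0.34 ± 0.06, 95% confidence interval −0.475 to −0.21, adjusted p = 0.00744), and without JQ1 replicate 1 it was at −0.33 with an adjusted p of 0.0555 (limma).

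For the genes that fell with both inhibitors, the direct difference did not pass the test. It was −0.11 for AKR1D1 (95% confidence interval −0.24 to 0.02, adjusted p = 0.272) and −0.13 for SLC51B (−0.33 to 0.07, adjusted p = 0.433, limma). NR0B2 stood at 0.21 ± 0.10 (adjusted p = 0.23), and without JQ1 replicate 1 at 0.085 (adjusted p = 0.758, limma). The other 5 lay between −0.155 for CYP7A1 and 0.05 for SLC27A5 with adjusted p-values of 0.202 to 0.947. JQ1 and RVX-208 arrays did not overlap for 6 of the 10 genes, 5 below and 1 above, where 42.8% of all genes did not overlap.

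**Figure D2:**
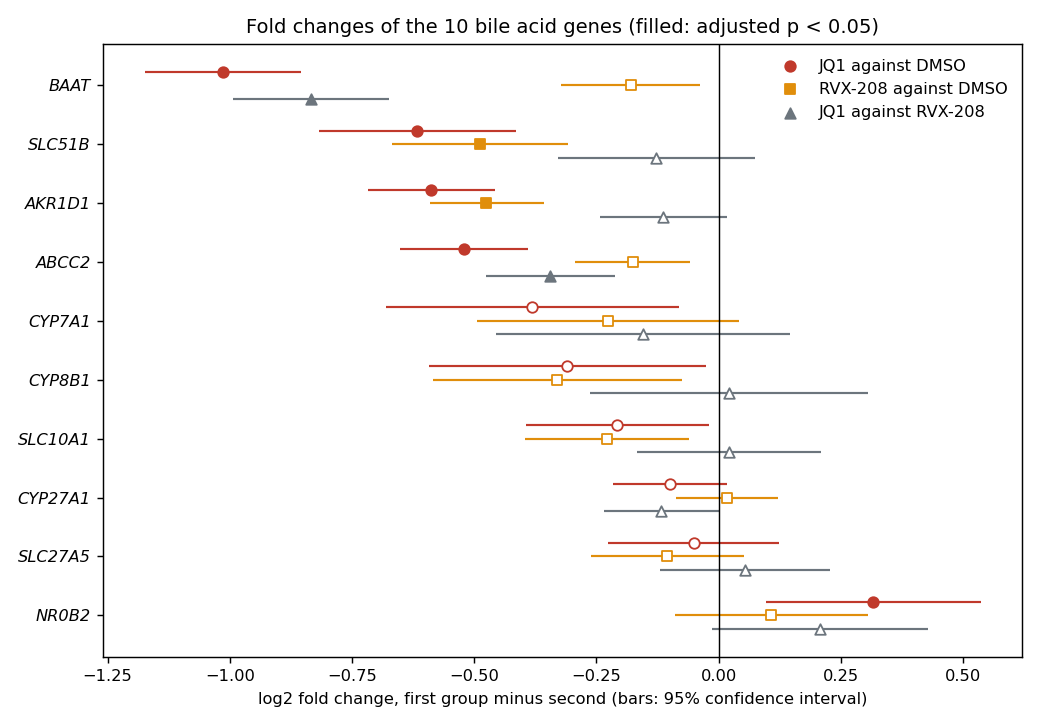
Log2 fold changes of the 10 bile acid genes, with 95% confidence intervals, with circles for JQ1 and squares for RVX-208, both against DMSO, and triangles for JQ1 against RVX-208. Filled symbols passed an adjusted p of 0.05. BAAT is far lower with JQ1 (−1.01) than with RVX-208 (−0.18), while AKR1D1 and SLC51B are filled for both inhibitors.

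**Figure D3:**
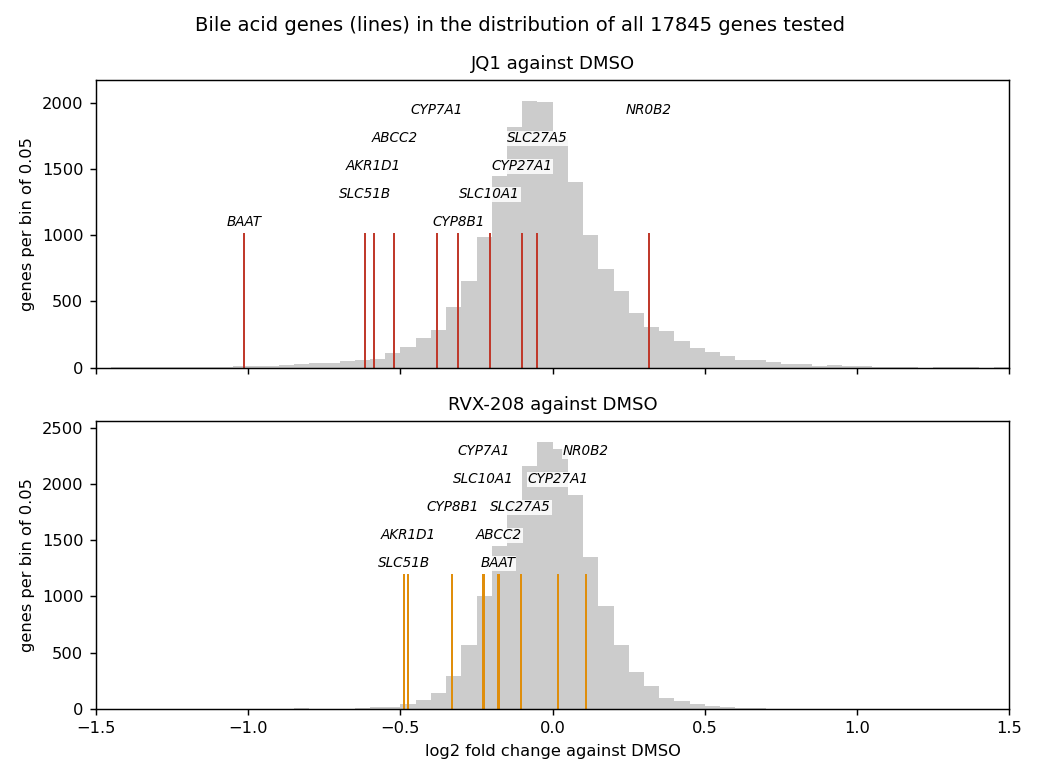
Number of genes per bin of log2 fold change against DMSO, for JQ1 (top) and RVX-208 (bottom), over all 17845 genes, with a line at each bile acid gene. With JQ1 the genes BAAT, SLC51B, AKR1D1 and ABCC2 lie in the lower tail, and with RVX-208 the lowest lines are SLC51B (−0.49) and AKR1D1 (−0.475).

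Other genes of the pathway were taken from 4 lists of further synthesis enzymes, transporters, regulators and bile acid modifying enzymes. These lists, too, were chosen with earlier results of these data known. The test covered 37 of the listed genes. HSD3B7, SCP2, FDXR, ATP8B1, NR1H4 (FXR itself), HNF4A and NR1I2 are not analysed here, and AMACR lies on a probe set shared with other genes. With JQ1, 10 of the 37 were lower and 1 was higher, with a median log2 fold change of −0.08, where 22.8% of all genes were called in either direction. With RVX-208, 1 was lower and 0 were higher (limma), with a median of −0.03, where 6.28% of all genes were called. Between JQ1 and RVX-208, 5 of 37 were lower with JQ1 and 0 were higher, with a median of −0.10, where 10.9% of all genes were called.

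Among 11 further synthesis genes, SLC27A2 and ACOX2 fell with JQ1 and ACOT8 rose, that is 3 of 11, where 22.8% of all genes were called. SLC27A2, which activates very long chain fatty acids and bile acid precursors with coenzyme A, read 9.78 and 9.79 on JQ1 arrays, 10.03, 10.06 and 10.01 on RVX-208 arrays and 10.06, 10.08 and 10.07 on DMSO arrays. Its log2 fold change with JQ1 was −0.29 ± 0.05 (adjusted p = 0.00349, limma) and held with any array left out. ACOX2, the peroxisomal oxidase that shortens the side chain of bile acid precursors, was at −0.26 ± 0.06 (adjusted p = 0.0154, limma), and at an adjusted p of 0.105 without JQ1 replicate 1. ACOT8, a peroxisomal thioesterase, was at 0.195 ± 0.05 (adjusted p = 0.0305, limma). The ACOT8 call was lost without DMSO replicate 2 (adjusted p = 0.0682), DMSO replicate 3 (0.0741), JQ1 replicate 1 (0.102), JQ1 replicate 2 (0.127) or RVX-208 replicate 3 (0.0504, limma). With RVX-208, 0 of these 11 passed the limma test (0 of 11 at an unadjusted p under 0.05).

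Among 11 further transporters, ABCG2, ABCB4 and ABCG8 fell with JQ1, that is 3 of 11, where 12% of all genes were lower. ABCG2, an efflux pump for sulfated steroids and drugs, was at −0.39 ± 0.09 (adjusted p = 0.0179). ABCB4, which brings phosphatidylcholine into bile, was at −0.36 ± 0.10 (adjusted p = 0.0269), and ABCG8, which with ABCG5 exports sterols into bile, at −0.28 ± 0.08 (adjusted p = 0.034, limma). Each of the 3 was lost without JQ1 replicate 1, at adjusted p-values of 0.127 for ABCG2, 0.185 for ABCB4 and 0.0762 for ABCG8. ABCB4 was also lost without DMSO replicate 1 (0.0713) or DMSO replicate 3 (0.0569), and ABCG8 without DMSO replicate 1 (0.0649), JQ1 replicate 2 (0.185) or RVX-208 replicate 3 (0.0522, limma). ABCB11, the main bile salt export pump, had a signal above that of only 47.2% of olfactory receptor genes and no called change. With RVX-208, 0 of the 11 transporters passed (limma; 1 of 11 at an unadjusted p under 0.05).

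Of 11 regulators, 4 fell with JQ1, where 12% of all genes were lower, and PPARGC1A had the lowest log2 fold change of all 37 genes. PPARGC1A, a coactivator of nuclear receptors in fasting metabolism, read 7.71 and 7.59 on JQ1 arrays, 8.49, 8.30 and 8.42 on RVX-208 arrays and 8.63, 8.67 and 8.64 on DMSO arrays. Its log2 fold change was −0.998 ± 0.07 with JQ1 (adjusted p = 5.73e-05) and −0.25 ± 0.06 with RVX-208 (adjusted p = 0.0551), and the direct difference was −0.75 ± 0.07 (adjusted p = 0.00059, limma). RXRA, the partner with which FXR binds DNA, fell with JQ1 (−0.40 ± 0.06, adjusted p = 0.00146), as did KLB, the co-receptor for the gut hormone FGF19 (−0.40 ± 0.07, adjusted p = 0.00416, limma). These 3 calls with JQ1 held with any array left out. MAFG, which in mouse represses bile acid synthesis genes, was at −0.26 ± 0.07 (adjusted p = 0.0272), and was lost without DMSO replicate 1 (0.0692), DMSO replicate 2 (0.0611) or JQ1 replicate 2 (0.186, limma). With RVX-208, 0 of 11 regulators passed (limma; 2 of 11 at an unadjusted p under 0.05).

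Of 4 bile acid modifying enzymes, SULT2A1, which sulfates bile acids and steroids, was called lower with JQ1 (12% of all genes) and RVX-208 (3.22%). It read 9.06 and 9.02 on JQ1 arrays, 9.05, 8.92 and 9.07 on RVX-208 arrays and 9.25, 9.28 and 9.20 on DMSO arrays, with no overlap between either inhibitor and DMSO. The log2 fold change was −0.20 ± 0.06 with JQ1 (adjusted p = 0.0499) and −0.23 ± 0.06 with RVX-208 (adjusted p = 0.0483, limma), both at the edge of the threshold. UGT2B7, which joins bile acids and many other compounds to glucuronic acid, did not pass the test. It read 6.81 and 6.64 on JQ1 arrays, 6.90, 6.95 and 7.025 on RVX-208 arrays and 6.64, 6.77 and 6.44 on DMSO arrays, so the RVX-208 arrays lay above all others. Its log2 fold change was 0.35 ± 0.09 with RVX-208 (unadjusted p = 0.00387, adjusted p = 0.0544) and 0.11 ± 0.10 with JQ1 (adjusted p = 0.476, limma). At an unadjusted p under 0.05 were 1 of 4 of these enzymes with JQ1 and 2 of 4 with RVX-208. For SULT2A1, the RVX-208 call was lost whichever of the 8 arrays was left out, with adjusted p-values of 0.0667 to 0.124. The JQ1 call was lost with 7 of 8 arrays left out in turn, the exception being RVX-208 replicate 2, over a range of 0.0457 to 0.206 (limma). Between the inhibitors, SLC27A2 (−0.25 ± 0.05, adjusted p = 0.0141), ACOX2 (−0.30 ± 0.06, 0.0168), RXRA (−0.29 ± 0.06, 0.014) and KLB (−0.26 ± 0.07, 0.0459) were also lower with JQ1 (limma). Of the 5 calls between the inhibitors, that of PPARGC1A held with any array left out. ACOX2 was lost without JQ1 replicate 1 (0.116) or RVX-208 replicate 2 (0.0614), and RXRA without JQ1 replicate 2 (0.0963) or RVX-208 replicate 2 (0.0504). SLC27A2 was lost without JQ1 replicate 1 (0.0802), JQ1 replicate 2 (0.0662) or RVX-208 replicate 2 (0.0559), and KLB without any array other than DMSO replicate 1, at adjusted p-values of 0.0505 to 0.195 (limma).

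**Figure D4:**
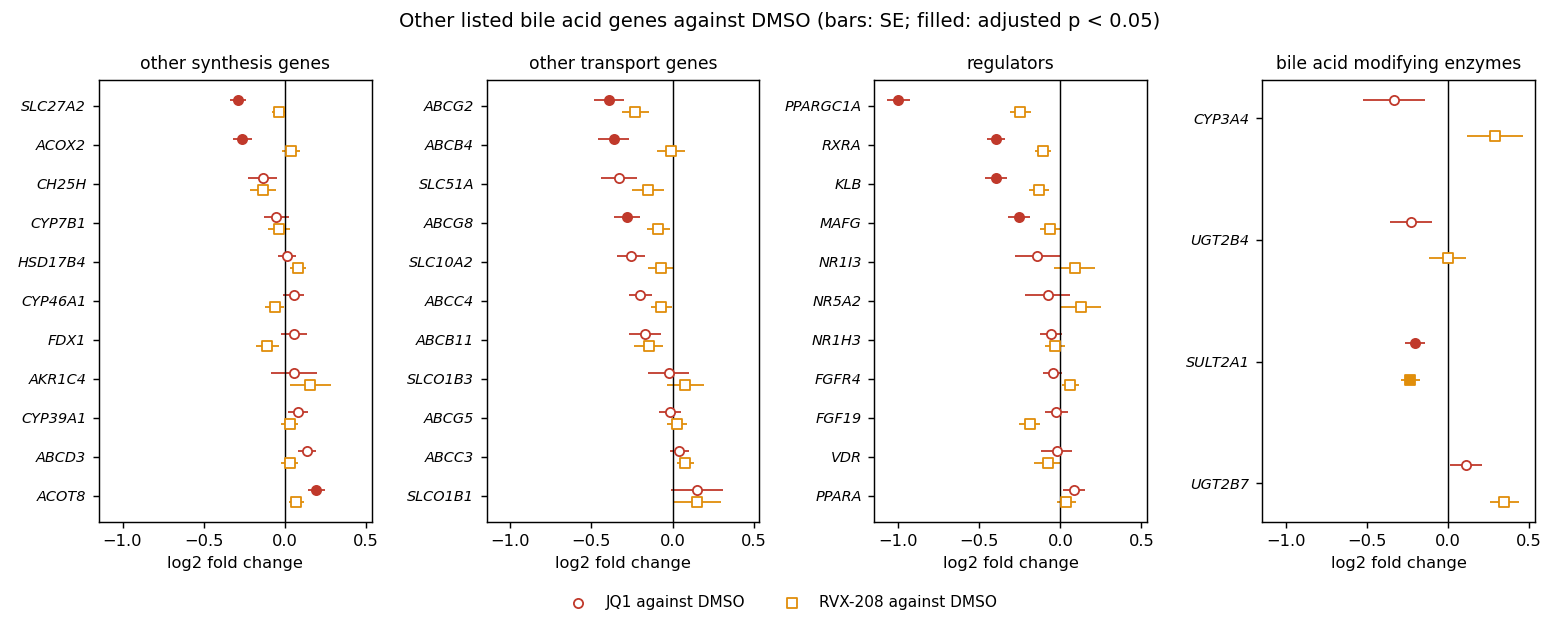
Log2 fold changes against DMSO, with standard errors, of 37 other genes of bile acid synthesis, transport, regulation and modification, for JQ1 (circles) and RVX-208 (squares). Filled symbols passed an adjusted p of 0.05. PPARGC1A with JQ1 (−0.998) lies far from the rest, and the only filled square is SULT2A1 (−0.23).

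Genes with the pattern most like each of the 4 lowered genes were found by the root mean square difference over the 8 arrays, after the DMSO mean was taken off each gene. AKR1D1 was closest to JAG1 (0.0397 log2 units), GRAMD1B (0.0448) and CD22 (0.0455), against a median of 0.40 over all genes. SLC51B shared GRAMD1B (0.0562) and JAG1 (0.0632) among its nearest, with ASB2 (0.0649), against a median of 0.422. BAAT was closest to ALKBH8 (0.0429), MAML2 (0.053) and TRMT61B (0.0603), against 0.51. ABCC2 was closest to MYBBP1A (0.028), TNFRSF21 (0.0286) and SLC38A1 (0.0286), against 0.281. The lists of AKR1D1 and SLC51B overlapped, which restates their similar log2 fold changes (−0.59 and −0.62 with JQ1, −0.475 and −0.49 with RVX-208). Those of BAAT and ABCC2 held no gene of another list.

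Markers of other cell types were read beside these results. Summed fibroblast markers were lower with both inhibitors, at 8.59 to 8.62 log2 units on JQ1 arrays, 8.565 to 8.61 on RVX-208 arrays and 8.77 to 8.79 on DMSO arrays. Of the 4, PDGFRB was called lower with JQ1 (−0.305, adjusted p = 0.00574) and with RVX-208 (−0.24, adjusted p = 0.0362, limma). Of all genes, 12% and 3.22% were called lower in these comparisons. At an unadjusted p under 0.05 were 1 of 4 fibroblast genes with JQ1 and 4 of 4 with RVX-208 (limma). DCN was at background. Summed endothelial markers were 8.497 to 8.585 on JQ1 arrays, 8.63 to 8.68 on RVX-208 arrays and 8.61 to 8.66 on DMSO arrays. Summed cholangiocyte markers were 11.73 to 11.77 on JQ1 arrays, 11.65 to 11.69 on RVX-208 arrays and 11.70 to 11.73 on DMSO arrays. Summed blood cell markers were 7.41 to 7.56 on JQ1 arrays, 7.18 to 7.51 on RVX-208 arrays and 7.525 to 7.63 on DMSO arrays. CFTR, PTPRC, CD3E and VWF were under the 95th percentile of the olfactory receptor genes. Of these 10 endothelial, cholangiocyte and blood cell genes, 0 were called in any comparison (limma; at most 2 of 4 cholangiocyte genes, 1 of 3 blood cell genes and 0 of 3 endothelial genes at an unadjusted p under 0.05). Their part in the changes of the bile acid genes was not tested.

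In the authors' deposited table, an F test over the groups gave adjusted p-values of 0.000206 for BAAT, 0.000603 for AKR1D1, 0.00174 for ABCC2 and 0.00369 for SLC51B. For the other 6 genes the authors' deposited table gave adjusted p-values of 0.0984 to 0.491. NR0B2, called higher with JQ1 here, was among them at 0.105 (F test). That F test covers both inhibitors against DMSO at once, so it differs from the test of a single comparison used here.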

How the data were processed

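Expression in 8 HepG2 samples (2 of JQ1, 3 of RVX-208, 3 of DMSO) was measured on Affymetrix Human Gene 1.0 ST arrays. The authors deposited log2 values per probe set, made by RMA with R 2.15.3 and limma 3.14.4 per the submitters' processing notes. The table the authors deposited of their own fit holds log2 fold changes, an F score and p-values per probe set. Recomputed differences between group means matched its fold changes to 0.0001 for 19815 of 19816 probe sets. The genome build is not given in the sources used here. Array signals carry no counts, and precision is limited by how many arrays there are.

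Of 19816 probe sets, 17859 name 1 gene, 997 several and 960 none. Where a gene had several (14 genes), the brightest on average was kept, which left 17845 genes. A model with 1 mean per group was fitted over all 8 arrays with limma 3.58.1 (lmFit, eBayes, 8.55 degrees of freedom) in R 4.3.3, two-sided, with Benjamini-Hochberg adjustment over all genes and calls under 0.05. Errors are standard errors. No label says that replicates were grown apart, so a p-value here measures only the spread among these samples, which may be technical. Python 3.11.15, pandas 2.3.3 and matplotlib 3.10.9 were used for tables and plots, and the fit was tested on simulated data.

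The 10 genes and all lists were chosen with earlier results of these data known. Named were the 10 genes, the other listed bile acid genes called against DMSO, the 3 genes nearest in pattern to each member called with an absolute log2 fold change of at least 0.5, and HEXIM1, SERPINI1 and MYC. SLC51A, ABCB11, UGT2B7, PDGFRB and DCN were named after their values were seen. Promoter windows are those of RefSeq. A listed item is not reported here. Alternatives covered scaling (cyclic loess, median, housekeeping genes), dim genes, the variance model, arrays in the fit, the replicate block, probe sets, the threshold and leaving out each array. Background correction and scan batches were not varied, since the values had already been through RMA and the labels used here hold no scan dates. Same-numbered samples did not deviate together (correlations of their deviations from group means −0.1497 to 0.0756), so the numbers were not taken as pairs.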

Additional observations from a re-analysis of the deposited data

How the results depend on the processing

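The calls of AKR1D1, BAAT, SLC51B and ABCC2 for JQ1 against DMSO, of AKR1D1 for RVX-208 against DMSO and of BAAT between the inhibitors held in all alternatives and with each array left out. With the replicate number as a block in the model (replicate block), 5 of the 37 other listed genes were called with JQ1, against 11 without it. Over all 17845 genes the block left 3057 calls with JQ1, against 4066. With RVX-208 the block left 1 of the 10 genes, SLC51B being lost (adjusted p = 0.0563, limma), and 0 of the 37, against 2 and 1, and over all genes 80 calls against 1120. Between the inhibitors it left 2 of the 37, against 5, and over all genes 1050 calls against 1952.

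Centring on housekeeping genes shifted all genes down (8560 calls with JQ1, 931 higher and 7629 lower, against 1916 and 2150). The reference genes were themselves higher on the authors' scaling, with a median log2 fold change of 0.131 with JQ1 and 0.095 with RVX-208. Calls under this centring therefore rest on a reference that differed between the groups. It gave 8 of 10 and 20 of 37 calls with JQ1. With RVX-208 it gave 6 of 10 and 5 of 37, where all genes gave 3721 calls. CYP7A1 (−0.55, adjusted p = 0.0141), CYP8B1 (−0.475, 0.0146), CYP27A1 (−0.265, 0.00705) and SLC10A1 (−0.37, 0.0095) were then called lower with JQ1, and NR0B2 was not called (0.15, 0.242, limma). ABCC2 with RVX-208 passed under that centring (0.0149), under cyclic loess (0.0483) and with a variance trend (0.0078). At an adjusted p under 0.01, 4 of 37 were called with JQ1, 1 of 10 and 0 of 37 with RVX-208, and 1 of 37 between the inhibitors. Of all 17845 genes, that threshold left 2203 with JQ1, 45 with RVX-208 and 754 between the inhibitors. With only the 2 groups compared in the fit, 7 of 37 were called with JQ1 and 0 with RVX-208, where all genes gave 3194 and 756 calls. For the other listed genes with RVX-208 the count was 3 (1 higher, 2 lower) under cyclic loess, with a variance trend, or with dim genes left out (of 26 tested). It was 2 with array weights and 0 with all probe sets tested. Over all genes these settings gave 906, 2248, 2035 (of 12707 tested), 1485 and 945 calls in that order. Centring on the median gave 1 higher and 0 lower, where all genes gave 637 higher and 439 lower.

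Leaving out 1 DMSO or RVX-208 array at a time gave 4 to 5 of 10 and 7 to 11 of 37 with JQ1, where all genes gave 3319 to 3788 calls. With RVX-208 it gave 1 to 2 of 10 and 0 of 37, where all genes gave 52 to 705. Between the inhibitors it gave 2 of 10 and 1 to 5 of 37, where all genes gave 1166 to 1981. The JQ1 count of the 37 was 7 without DMSO replicate 1, where all genes gave 3623 calls. Between the inhibitors, leaving out RVX-208 replicate 2 gave 1 of the 37, where all genes gave 1166 calls. Leaving out a JQ1 array leaves 1 in that group, so counts of JQ1 calls from those fits are not given. How many genes were called with RVX-208 also moved with single arrays, as given beside that comparison.

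Signs turned only for uncalled values near 0, and the cause was not tested. SLC27A5 with JQ1 was 0.016 under cyclic loess and 0.013 without JQ1 replicate 2 (−0.116 to 0.013 over left-out arrays). CYP27A1 with RVX-208 was −0.017 under cyclic loess, −0.082 on housekeeping genes and −0.002 without DMSO replicate 3 (−0.002 to 0.032 over left-out arrays). Between the inhibitors, CYP8B1 was −0.004 under cyclic loess, −0.045 on housekeeping genes, −0.185 without JQ1 replicate 1 and −0.033 without RVX-208 replicate 1 (−0.185 to 0.226 over left-out arrays). SLC27A5 was −0.012 on housekeeping genes and −0.011 without JQ1 replicate 1 (to 0.118 without JQ1 replicate 2). SLC10A1 was −0.005 under cyclic loess, −0.045 on housekeeping genes, −0.007 without JQ1 replicate 2 and −0.037 without RVX-208 replicate 2 (to 0.072 without RVX-208 replicate 1).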
